A study of Mus musculus with 4 samples.

Results

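The genes described here are the 49 mouse genes of DNA replication licensing and of the replication fork, in cultured CD4+ T cells given TGFb1 with or without progesterone. They were taken by name: a probe set counted if the platform annotation gave it 1 gene symbol and that symbol was on the list, and each gene was read by the probe set with the highest mean over the 4 arrays. All 49 had such a probe set. In 48 of them it lay above the level filter (the median level of all probe sets), so these 48 were tested, among 10501 genes in all. The cells were naive CD4+ T cells (helper lymphocytes) from the spleen and from mesenteric and peripheral lymph nodes of mice. Cultures of both groups ran for 7 days in medium with 10% serum and 2.5 ug/ml concanavalin A, a lectin that drives T cells into division, and both received hTGFb1, a cytokine that restrains T cell growth, at 1 ng/ml. One group of 2 arrays had TGFb1 alone (called TGFb1 arrays below), and the other group of 2 arrays had TGFb1 plus progesterone, a steroid hormone, at 2000 ng/ml (progesterone arrays). The design asks which genes differ when progesterone is added. The labels give neither the strain, age and sex of the mice nor whether replicates were separate cultures, so the p-values cover the spread between the samples at hand and no more, and that spread may be technical.

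A chromosome is copied in steps. In G1 the origin recognition complex, Cdc6 and Cdt1 load rings of MCM proteins onto origins, which is called licensing, and geminin blocks Cdt1 afterwards so that origins are not licensed again in the same cycle. In S phase the kinase Cdc7 with its activator Dbf4, together with Mcm10, turns the ring into the active helicase by adding Cdc45 and the GINS complex. Polymerase alpha and primase then lay primers, replication factor C loads the sliding clamp PCNA, polymerases delta and epsilon extend the strands, Fen1 and Lig1 join the lagging strand, and ribonucleotide reductase, thymidylate synthase, thymidine kinase and dUTPase supply nucleotides. Many of these genes are transcribed with the cell cycle through E2F factors.

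The groups differed in ways that touch every comparison below. The trimmed mean signal was 146 to 155 with TGFb1 alone and 108 to 139 with progesterone, and signals were therefore quantile normalised. Xist, the RNA of the inactive X chromosome, had array signals of 9.52 and 9.70 with TGFb1 alone and of 1389.9 and 825 with added progesterone. The Y-linked genes Eif2s3y, Kdm5d and Uty were lower with progesterone, with log2 differences of -5.18, -3.77 and -2.56. Xist lay above the level filter only through the progesterone arrays, and the 3 Y-linked genes only through the TGFb1 arrays. All 4 thus had to differ to be tested. Eif2s3y had signals of 689 and 727 with TGFb1 alone and of 4.25 and 0.492 with added progesterone. The treatment and a difference in the sex of the source animals, which the labels do not give, therefore cannot be told apart. None of the 10 tested T cell markers passed by limma (1 higher and 4 lower at an unadjusted p under 0.05), among them Cd4 (-0.34 ± 0.098) and Cd3e (0.11 ± 0.079). Of all genes tested, 11.8% were higher and 12.3% lower at that unadjusted p. Among markers of other cells, 2 of 8 tested myeloid genes (Lyz2, 2.69 ± 0.39, and S100a8, 2.44 ± 0.58) passed by limma as higher with progesterone. So did 1 of 4 tested mast cell genes (Kit, 1.09 ± 0.16). No marker of B cells (4 tested), CD8 T cells (2) or NK cells (2) passed. At an unadjusted p under 0.05, 3 myeloid and 2 mast cell genes were higher and both NK genes were lower. Of the 4 B cell genes, 3 lay above the level filter only through the progesterone arrays. The summed deposited signal of the myeloid markers was 566 and 215 with TGFb1 alone and 1170.0 and 1240.0 with progesterone. For the other lists those sums were 139 and 114 against 276 and 143 (B cells), 149 and 174 against 166 and 91.2 (CD8 T cells), 448 and 519 against 261 and 226 (NK cells), 1662 and 1046 against 1132 and 1128 (mast cells) and 14.9 and 23.7 against 28.5 and 21.3 (erythroid cells), and no marker was listed at 0. The part of these differences in the results below was not tested.

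Replication genes were lower with progesterone. Of the 48 tested, 25 fell and none rose by limma (adjusted p under 0.05), where 5.17% of all genes tested fell, 2.99% rose and 8.16% did either. On deposited values 7.57% of all genes fell and 1.35% rose, and after median centring 7.46% and 2.17%. At an unadjusted p under 0.05, 36 members were lower and 1 was higher, where 12.3% of all genes tested were lower and 11.8% higher. Differences are given as progesterone minus TGFb1 alone in units of log2(signal + 16), a scale on which changes of dim genes come out too small. The number after ± is the limma standard error (2 arrays against 2), and array signals are as deposited. The median of the 48 differences was -0.72, a fold of 1.65, beside 0.022 over all genes tested. Falls of at least 2-fold were seen for 16 members (2.91% of all genes) and of at least 4-fold for 3, the ribonucleotide reductase gene Rrm2, the polymerase epsilon gene Pole and the licensing factor gene Cdc6 (0.905% of all genes). The 25 that fell ranged from -0.66 to -2.64, and the 23 that did not pass from -0.75 to 0.95, of which 20 were below 0. Both progesterone arrays lay below both TGFb1 arrays for 38 of the 48 genes after normalisation, against 26% of all genes, and for 45 of 48 in the deposited signals, against 45% of all genes. The reverse held for 2 members after normalisation, Orc1 and Orc3, against 29.8% of all genes. Of the 48, 47 lay above the level filter in both groups, and all 25 that fell were among them. In a bulk sample, fewer dividing cells and less of these RNAs per cell cannot be told apart.

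**Figure D1:**
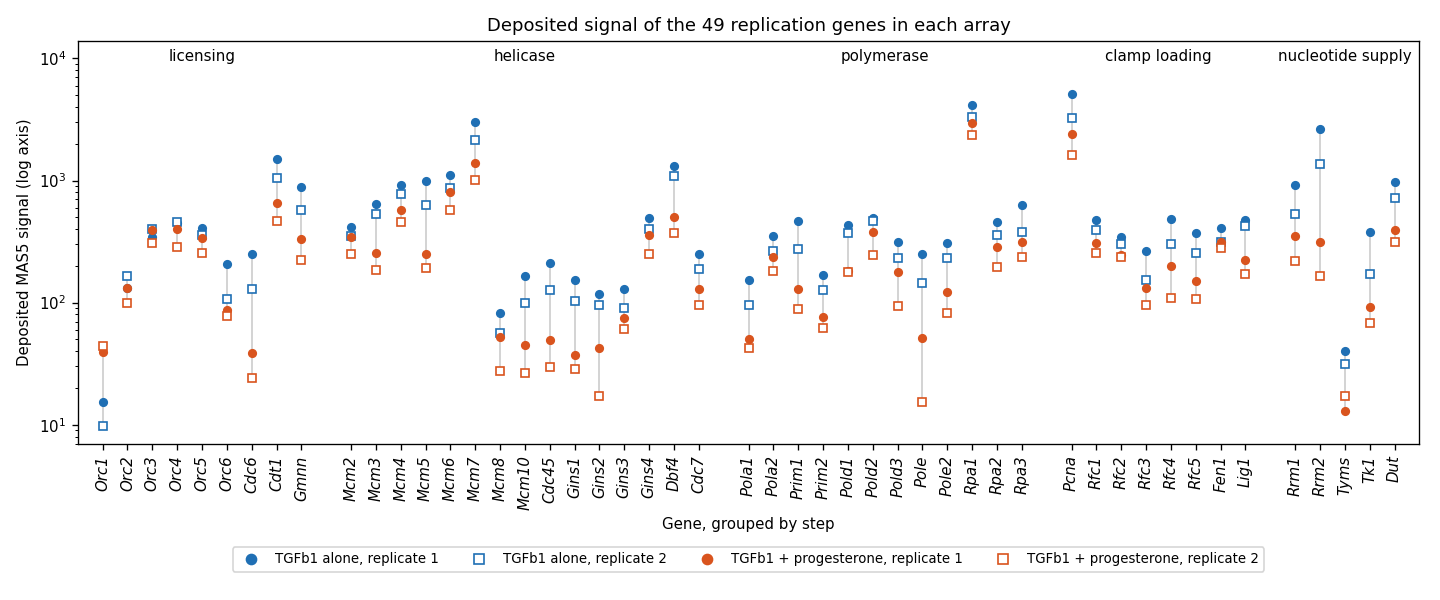
Deposited MAS5 signal (log axis) of the 49 replication genes, grouped by step, with 1 point per array: blue for TGFb1 alone, orange for TGFb1 plus progesterone, circles for replicate 1 and open squares for replicate 2. For 45 of the 48 tested genes both orange points lie below both blue points, while Orc1 lies the other way.

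The count of calls rested on both progesterone arrays. Without progesterone replicate 2, 7 members still fell (Cdc6, Mcm3, Mcm5, Gins1, Dbf4, Pole and Rrm2), where 1.82% of all genes did. Without progesterone replicate 1 the count was 14, these 7 with Mcm10, Cdc45, Gins2, Prim1, Pole2, Rfc4 and Lig1, where 2.92% of all genes fell. Leaving out TGFb1 replicate 1 gave 18 (4.49% of all genes) and leaving out TGFb1 replicate 2 gave 31 (6% of all genes). The median stayed between -0.91 and -0.56 when any 1 array was left out. Among members that did not pass, Orc6, Mcm4, Pold3, Rpa2, Rpa3, Pcna, Rfc3 and Fen1 passed as lower in at least 1 of the alternative settings. The members had 40 further probe sets above the level filter, of which 34 had the sign of the probe set used. When all kept probe sets were tested, 14 of the 40 were lower and passed. The matching shares over all 22518 kept probe sets were not counted, so these counts only describe the members.

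Arrays of 1 group also differed in these genes. TGFb1 replicate 1 lay above TGFb1 replicate 2 in 44 of the 48 genes after normalisation, against 45.7% of all genes, with a median gap of 0.32 on the log2 scale. Progesterone replicate 1 lay above progesterone replicate 2 in 35 of the 48, against 49% of all genes, with a median gap of 0.10. The median normalised level of the members was 8.57 and 8.36 (log2) with TGFb1 alone and 7.99 and 7.89 with progesterone. The step between the groups was larger than the step within either.

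**Figure D2:**
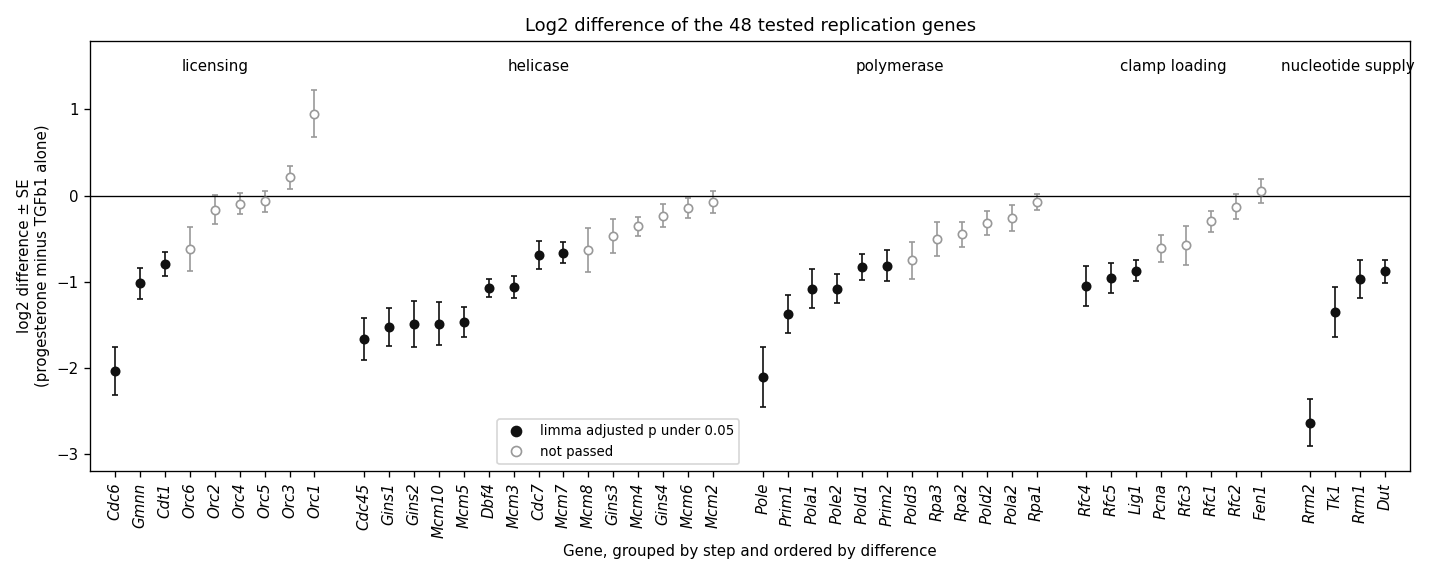
Log2 difference (progesterone minus TGFb1 alone) with the limma standard error for the 48 tested replication genes, by step and in order of size within each. Filled points passed at an adjusted p under 0.05 and all 25 of them lie below 0; open points did not pass.

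In licensing, the loading factors and geminin fell while the origin recognition complex did not pass. Of 9 licensing genes 3 fell, and the median was -0.16. Cdc6, the ATPase that joins the origin complex to recruit MCM rings, had array signals of 252 and 130.0 with TGFb1 alone and of 38.6 and 24.2 with added progesterone. The lower TGFb1 array stood far above both progesterone arrays. The difference was -2.03 ± 0.28 (adjusted p = 0.00577), a 4.10-fold fall. Cdt1, which brings the MCM ring to the origin, had signals of 1496 and 1055 with TGFb1 alone and of 658 and 463 with added progesterone, with no overlap, and fell by 0.79 ± 0.14 (adjusted p = 0.0144). Gmnn, which encodes the Cdt1 inhibitor geminin, had signals of 887 and 569.6 with TGFb1 alone and of 330.3 and 223 with added progesterone and a difference of -1.02 ± 0.18 (adjusted p = 0.0156). The loader Cdt1 and its inhibitor were thus both lower. Without either progesterone array in turn, Cdc6 was the 1 licensing gene still called.

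The origin recognition complex marks origins, and its genes Orc2, Orc3, Orc4 and Orc5 stood close to 0, at -0.16, 0.21, -0.093 and -0.068, with standard errors of 0.12 to 0.17. The other kept probe sets of Orc3 were at -0.36 and -0.41, and Orc3 turned to -0.094 on deposited values and to -0.19 with the mean of its probe sets. Orc6 was at -0.62 ± 0.26 (adjusted p = 0.191), with array signals of 207 and 108 with TGFb1 alone and of 86.7 and 77.2 with added progesterone. It was lower in both progesterone arrays, but its TGFb1 arrays lay far apart. Orc1, the large ATPase subunit, was the member with the largest positive value, 0.95 ± 0.28 (adjusted p = 0.0831). Its probe set was dim, with signals of 15.2 and 9.70 with TGFb1 alone and of 39.5 and 44.2 with added progesterone, and the gene's other probe set, under the level filter, had the opposite sign (-0.88). Orc1 was also the 1 member above the level filter (5.32 on the log2 scale) only through the progesterone arrays, with group means of 4.89 with TGFb1 alone and 5.84 with progesterone, so it had to differ to be tested and its tests carry no support for a rise. Its adjusted p was under the threshold on deposited values (0.0226), after median centring of the arrays (0.0352) and with the replicate number as a block (0.0384), and ran from 0.0226 to 0.397 over all settings.

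Among helicase genes 9 of 15 fell, with a median of -0.69, and all 15 differences were below 0. The subunits that are added to the MCM ring at origin firing had large falls. Cdc45, which forms the active helicase with GINS and the ring, had array signals of 209.8 and 127 with TGFb1 alone and of 49.1 and 29.9 with added progesterone, and a difference of -1.66 ± 0.24 (adjusted p = 0.00755). In the GINS complex, Gins1 had signals of 154 and 103 with TGFb1 alone and of 37.2 and 28.5 with added progesterone, and a difference of -1.53 ± 0.22 (adjusted p = 0.00712). Its partner Gins2 fell by 1.49 ± 0.27, and the remaining GINS genes Gins3 (-0.47) and Gins4 (-0.23) did not pass. For all 4 both progesterone arrays lay below both TGFb1 arrays after normalisation, against 26% of all genes. Mcm10, which helps to start the assembled helicase, fell by 1.49 ± 0.25. Mcm8, a helicase of recombination repair and not of the ring, was at -0.64 and did not pass (adjusted p = 0.182).

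Both genes of the kinase that fires origins fell, though neither passed with the mean of probe sets. Dbf4, its activating subunit, had array signals of 1308 and 1094 with TGFb1 alone and of 505 and 371 with added progesterone, with a wide gap between the groups, and a difference of -1.07 ± 0.11 (adjusted p = 0.00209). This was the smallest adjusted p among the members. The catalytic subunit gene Cdc7 fell by 0.69 ± 0.17 (adjusted p = 0.0463), close to the threshold. It lost its call in 9 of 19 alternative settings, among them the mean of its probe sets (-0.59, adjusted p = 0.0779), with a range of 0.00427 to 0.272. With the mean of its probe sets Dbf4 was at -0.36 and did not pass (adjusted p = 0.144, range 4.1e-07 to 0.144 over all settings), since its second probe set was at 0.35. Without progesterone replicate 2 the helicase genes called were Mcm3, Mcm5, Gins1 and Dbf4.

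The MCM ring holds Mcm2 to Mcm7 in equal number, and its 6 genes are shown in full because they split between called and not called. Mcm3 had array signals of 644 and 533 with TGFb1 alone and of 257 and 186 with added progesterone, and a difference of -1.06 ± 0.13 (adjusted p = 0.00336). For Mcm5 the arrays gave signals of 989.7 and 633 with TGFb1 alone and of 250.4 and 194 with added progesterone, and the difference was -1.47 ± 0.18 (adjusted p = 0.00336), a 2.77-fold fall. Mcm7 had signals of 3014 and 2133 with TGFb1 alone and of 1385 and 1001 with added progesterone, and a difference of -0.66 ± 0.12 (adjusted p = 0.0165). In these 3 genes the groups did not overlap and the lowest TGFb1 array stood well above the highest progesterone array. Mcm4 had signals of 922 and 778 with TGFb1 alone and of 569 and 456 with added progesterone, which did not overlap either, and a difference of -0.36 ± 0.11 (adjusted p = 0.0928). Mcm2 had signals of 419.7 and 353 with TGFb1 alone and of 348 and 249 with added progesterone, and a difference of -0.071 ± 0.13 (adjusted p = 0.783). For Mcm6 the arrays gave signals of 1110.2 and 875 with TGFb1 alone and of 804 and 577 with added progesterone, and the difference was -0.14 ± 0.11 (adjusted p = 0.49). In Mcm2 and Mcm6 the groups overlapped once normalised. Mcm2 was at 0.031 with the mean of its probe sets and at 0.0070 without TGFb1 replicate 1.

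Further probe sets of the ring genes gave like values. The 3 other kept probe sets of Mcm3 lay between -1.14 and -0.96, that of Mcm5 at -1.49 and the 3 of Mcm7 between -0.99 and -0.58. Those of Mcm2, Mcm4 and Mcm6 were at 0.13, -0.40 and -0.015. The probe sets used for Mcm3, Mcm5 and Mcm7 carry a suffix that marks probes which may also match other transcripts, but other probe sets without that suffix, such as -1.14 for Mcm3, -1.49 for Mcm5 and -0.81 for Mcm7, fell too when all kept probe sets were tested. Whether the ring genes differ from each other in their response was not tested.

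**Figure D3:**
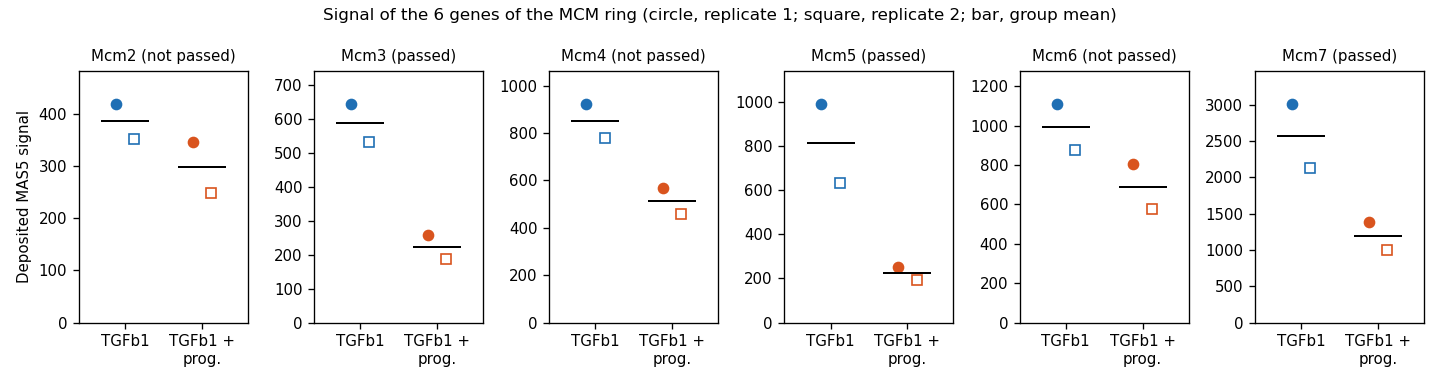
Deposited MAS5 signal of the 6 MCM ring genes in each array, with each axis starting at 0; circles are replicate 1, squares replicate 2 and bars group means. Mcm3, Mcm5 and Mcm7 passed the test, while in Mcm2 and Mcm6 the progesterone arrays come closer to the TGFb1 arrays; levels of different genes are not comparable, since probe sets differ.

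The start regions of ring genes are printed to show the letters that E2F factors, and the CCAAT-binding factor NF-Y, are known to read, in genes that were called (Mcm3, Mcm5, Mcm7) and not called (Mcm2, Mcm6); Cdc6, Cdc45 and Rrm2 are added as genes with large falls in licensing, helicase activation and nucleotide supply. Each run is 300 bases from RefSeq (GRCm38.p6), 250 bases before to 50 after the annotated start, 5′ to 3′ on the gene's strand. Capitals mark the E2F consensus (TTTCCCGC, TTTCGCGC, TTTGCCGC or TTTGGCGC), the CCAAT box (CCAAT) and the CHR element (TTTGAA), on either strand. The E2F words can overlap each other, as in Mcm5 and Mcm6, and a CCAAT box, as in Mcm7. The windows are chr6:88898731-88899030 (minus strand) for Mcm2, chr1:20820263-20820562 (minus strand) for Mcm3, chr8:75109259-75109558 (plus strand) for Mcm5, chr1:128359656-128359955 (minus strand) for Mcm6, chr5:138171834-138172133 (minus strand) for Mcm7 (the first of its 2 annotated starts), chr11:98907901-98908200 (plus strand) for Cdc6, chr16:18811923-18812222 (minus strand) for Cdc45 and chr12:24708004-24708303 (plus strand) for Rrm2.
Mcm2: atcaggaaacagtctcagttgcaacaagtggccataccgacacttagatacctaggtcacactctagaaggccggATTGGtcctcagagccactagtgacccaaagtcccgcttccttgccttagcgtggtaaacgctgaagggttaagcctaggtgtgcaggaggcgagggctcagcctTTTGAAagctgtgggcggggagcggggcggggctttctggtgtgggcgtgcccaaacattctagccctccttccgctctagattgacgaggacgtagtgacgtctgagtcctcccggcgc
Mcm3: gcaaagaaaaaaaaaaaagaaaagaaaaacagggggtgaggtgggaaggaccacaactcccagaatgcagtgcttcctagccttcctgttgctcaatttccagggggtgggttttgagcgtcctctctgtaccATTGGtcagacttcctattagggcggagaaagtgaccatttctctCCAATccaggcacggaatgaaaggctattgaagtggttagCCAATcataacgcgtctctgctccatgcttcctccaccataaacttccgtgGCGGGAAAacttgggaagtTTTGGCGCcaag
Mcm5: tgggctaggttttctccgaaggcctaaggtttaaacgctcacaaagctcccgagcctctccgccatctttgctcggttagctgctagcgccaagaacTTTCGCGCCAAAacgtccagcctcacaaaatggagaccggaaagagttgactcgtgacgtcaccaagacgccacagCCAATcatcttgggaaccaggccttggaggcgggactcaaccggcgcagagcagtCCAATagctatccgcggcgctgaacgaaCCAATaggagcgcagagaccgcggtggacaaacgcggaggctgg
Mcm6: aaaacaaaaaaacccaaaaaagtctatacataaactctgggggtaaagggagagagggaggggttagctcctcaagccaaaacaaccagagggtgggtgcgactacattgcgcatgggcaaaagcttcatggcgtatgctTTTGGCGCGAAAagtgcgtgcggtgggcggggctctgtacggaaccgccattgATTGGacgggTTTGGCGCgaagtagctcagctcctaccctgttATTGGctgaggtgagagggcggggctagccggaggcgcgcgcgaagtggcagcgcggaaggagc
Mcm7: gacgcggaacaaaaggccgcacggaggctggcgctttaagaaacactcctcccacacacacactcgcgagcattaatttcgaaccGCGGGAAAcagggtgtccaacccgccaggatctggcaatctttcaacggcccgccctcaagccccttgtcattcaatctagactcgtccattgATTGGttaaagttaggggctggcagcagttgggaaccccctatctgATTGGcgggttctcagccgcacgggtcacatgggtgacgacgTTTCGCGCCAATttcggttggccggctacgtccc
Cdc6: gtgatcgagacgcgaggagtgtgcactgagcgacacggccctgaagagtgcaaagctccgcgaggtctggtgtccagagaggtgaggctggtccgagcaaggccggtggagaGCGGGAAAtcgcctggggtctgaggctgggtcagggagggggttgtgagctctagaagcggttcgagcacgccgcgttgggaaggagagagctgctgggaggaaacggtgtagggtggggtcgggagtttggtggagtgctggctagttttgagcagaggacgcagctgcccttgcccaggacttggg
Cdc45: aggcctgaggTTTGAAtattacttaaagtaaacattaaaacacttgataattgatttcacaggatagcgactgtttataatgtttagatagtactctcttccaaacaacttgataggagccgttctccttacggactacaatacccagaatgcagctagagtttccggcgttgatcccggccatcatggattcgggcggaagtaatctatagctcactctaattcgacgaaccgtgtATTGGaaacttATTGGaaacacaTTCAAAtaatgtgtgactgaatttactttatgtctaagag
Rrm2: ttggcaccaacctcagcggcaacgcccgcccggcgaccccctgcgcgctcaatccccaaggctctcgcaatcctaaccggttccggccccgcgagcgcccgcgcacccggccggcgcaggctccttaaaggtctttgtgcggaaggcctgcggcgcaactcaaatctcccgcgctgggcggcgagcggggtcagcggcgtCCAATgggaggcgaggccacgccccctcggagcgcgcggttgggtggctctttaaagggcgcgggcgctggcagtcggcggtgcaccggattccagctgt

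Of these windows, Mcm3, Mcm5 and Mcm7 each hold 2 E2F words and 3 CCAAT boxes. Mcm6, which did not pass, holds 3 E2F words and 2 CCAAT boxes. Mcm2, also not passed, holds 1 CCAAT box and 1 CHR element and none of the E2F words. Cdc6 holds 1 E2F word, Cdc45 holds 2 CCAAT boxes and 2 CHR elements, and Rrm2, with the largest fall of all members, holds 1 CCAAT box alone. E2F words thus stood both in genes that were called and in a gene that was not.

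Over all members, 41 of the 49 genes matched the promoter table, with 50 windows. The 8 with no window were Gmnn, Mcm4, Gins1, Gins2, Gins4, Prim2, Pole and Rfc2. An E2F word stood in 16 of the 41 (39%), against 4.99% of the 8577 tested genes with a window and 2.6% of all 27025 genes of the promoter table. A CCAAT box stood in 24 (58.5%, against 42.8% of tested genes and 41.1% of all genes of the promoter table) and a CHR element in 7 (17.1%, against 14.1% and 20.2%). Members with an E2F word were 9 of the 20 called genes with a window and 7 of the 20 genes that did not pass, and a CCAAT box stood in 9 of the former and 15 of the latter. By step, E2F words stood in 4 of 8 licensing, 6 of 11 helicase, 4 of 10 polymerase, 2 of 7 clamp loading and 0 of 5 nucleotide supply genes. A match is a run of letters and not a measured binding site. Only exact words in windows of 300 bases were searched, so the lack of a match does not show that a site is absent.

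**Figure D4:**
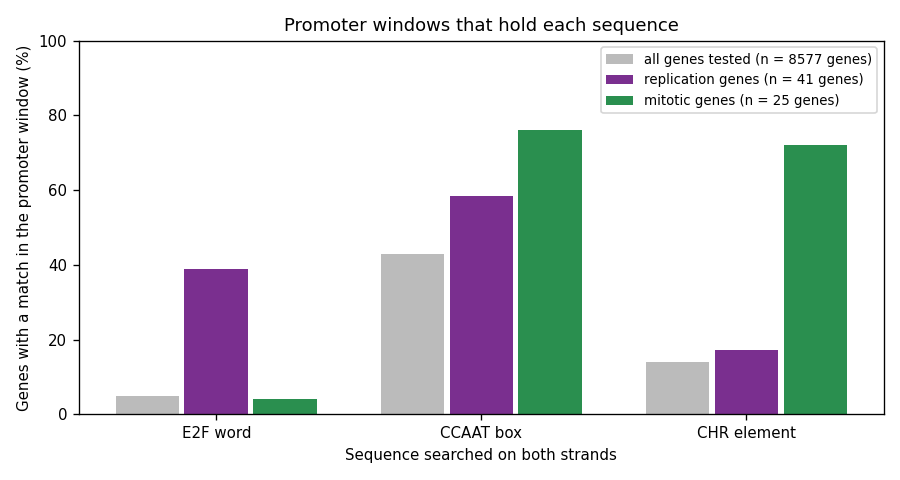
Share of genes (percent) with at least 1 match to each sequence in their 300 base promoter windows, for all genes tested, replication genes and mitotic genes. E2F words stood in 39% of replication genes, 4.99% of all genes tested and 4% of mitotic genes, while the CHR element stood in 72% of mitotic genes and 17.1% of replication genes.

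Polymerase genes fell in 6 of 12, with a median of -0.78, and all 12 differences were below 0. The leading strand enzyme, polymerase epsilon, was lower in both of its listed subunits. Its catalytic subunit gene Pole had array signals of 248 and 144 with TGFb1 alone and of 51.6 and 15.4 with added progesterone, and a difference of -2.11 ± 0.35 (adjusted p = 0.0117), a 4.33-fold fall. Progesterone replicate 2 was the lowest by far, and without it Pole was at -1.63. Pole2, the second subunit, had signals of 305 and 231 with TGFb1 alone and of 122 and 82.4 with added progesterone, and a difference of -1.08 ± 0.17 (adjusted p = 0.00996). The polymerase epsilon genes Pole3 (-0.38, adjusted p = 0.178) and Pole4 (-0.059, adjusted p = 0.853), which are no members, did not pass. Primase makes the RNA primers. Prim1, its catalytic subunit gene, had signals of 465 and 274 with TGFb1 alone and of 129.8 and 88.8 with added progesterone, and a difference of -1.37 ± 0.22 (adjusted p = 0.0105), and its further probe set was at -2.16. The regulatory subunit gene Prim2 fell by 0.81 ± 0.18. Pola1, the catalytic subunit gene of polymerase alpha, fell by 1.08 ± 0.22. It is the 1 member on the X chromosome. Without genes of the X and Y chromosomes 24 of 47 members fell, against 5.09% of all genes. The accessory subunit gene Pola2 was at -0.26 and did not pass.

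Polymerase delta makes most of the lagging strand. Pold1, its catalytic subunit gene, had array signals of 432 and 369 with TGFb1 alone and of 179.8 and 176 with added progesterone, without overlap, and a difference of -0.83 ± 0.15 (adjusted p = 0.0153). The accessory subunit genes Pold2 (-0.32) and Pold3 (-0.75, adjusted p = 0.0815) did not pass. Replication protein A coats single strands at forks and in repair, and its genes Rpa1, Rpa2 and Rpa3 were at -0.075, -0.45 and -0.50, with no call. In Rpa1 the groups overlapped after normalisation, and it was at 0.020 without TGFb1 replicate 1. All 9 polymerase and primase genes had both progesterone arrays below both TGFb1 arrays after normalisation, against 26% of all genes. Of these 9 genes 6 fell, against 5.17% of all genes. Without progesterone replicate 2 the 1 gene called was Pole, and without progesterone replicate 1 there were 3 (Prim1, Pole and Pole2).

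Clamp and lagging strand genes fell in 3 of 8, with a median of -0.60. Lig1, the ligase that seals Okazaki fragments, had array signals of 479 and 424 with TGFb1 alone and of 224 and 170.1 with added progesterone, and a difference of -0.87 ± 0.12 (adjusted p = 0.00648). Rfc5 and Rfc4 are small subunits of the clamp loader. Rfc5 had signals of 369.7 and 256 with TGFb1 alone and of 149.7 and 106 with added progesterone, and a difference of -0.96 ± 0.18 (adjusted p = 0.0172). For Rfc4 the arrays gave signals of 486 and 305 with TGFb1 alone and of 198 and 109 with added progesterone, and the difference was -1.05 ± 0.23 (adjusted p = 0.0336). After normalisation both progesterone arrays lay below both TGFb1 arrays in all 3, against 26% of all genes. The other loader genes Rfc1, Rfc2 and Rfc3 were at -0.30, -0.13 and -0.58 and did not pass, and Rfc2 was at 0.014 without progesterone replicate 1.

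Pcna, the sliding clamp itself, had signals of 5142 and 3223 with TGFb1 alone and of 2390.2 and 1624 with added progesterone, and a difference of -0.61 ± 0.16 (adjusted p = 0.0601). Its groups did not overlap, but in deposited signal its TGFb1 arrays lay farther from each other than the nearest arrays of the groups did. This does not set Pcna apart, since it also held for called members such as Rrm2 and Cdc6. Pcna passed as lower on deposited values, after median centring, with the replicate number as a block and without TGFb1 replicate 2 (-0.87, adjusted p = 0.000959), and over all settings its adjusted p ran from 6.2e-05 to 0.343. Fen1, the nuclease that trims Okazaki fragment ends, gave different readings in its 2 probe sets. The one used was at 0.051 with signals of 405 and 316 with TGFb1 alone and of 315 and 283 with added progesterone. The other was at -1.04, with signals of 322 and 194 with TGFb1 alone and of 132 and 71.0 with progesterone. With probe sets of the suffixes _x_at and _s_at left out, Fen1 was read by that second probe set and passed as lower (adjusted p = 0.0413), against a range of 0.0413 to 0.944 over all settings. Without progesterone replicate 2 no clamp or lagging strand gene was called by limma, where 4 of the 8 were lower at an unadjusted p under 0.05, and without TGFb1 replicate 2 there were 5.

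Nucleotide supply genes fell in 4 of the 4 tested, with a median of -1.16. Rrm2, the small subunit gene of ribonucleotide reductase, which makes deoxynucleotides and is expressed in S phase, had array signals of 2664 and 1364 with TGFb1 alone and of 314 and 167 with added progesterone. Both progesterone arrays were far below both TGFb1 arrays. The difference was -2.64 ± 0.27 (adjusted p = 0.00222), a 6.23-fold fall and the largest of the members, and its further probe sets were at -2.80 and -1.87. Rrm1, the large subunit gene, had signals of 921 and 536 with TGFb1 alone and of 354 and 219.6 with added progesterone, and a difference of -0.97 ± 0.22 (adjusted p = 0.0387). Tk1, the thymidine kinase of dividing cells, had signals of 381 and 172 with TGFb1 alone and of 91.2 and 67.6 with added progesterone, and a difference of -1.35 ± 0.29 (adjusted p = 0.0319). Dut, which removes dUTP before it can be built into DNA, had signals of 974 and 719 with TGFb1 alone and of 395 and 315 with added progesterone, and a difference of -0.88 ± 0.13 (adjusted p = 0.00888). In Rrm2, Rrm1 and Tk1 TGFb1 replicate 1 stood well above replicate 2. Tyms, thymidylate synthase, lay under the level filter, with signals of 40.1 and 31.2 with TGFb1 alone and of 13.0 and 17.2 with added progesterone and no test. Its progesterone arrays were the lower ones. Without either progesterone array in turn, Rrm2 was the 1 nucleotide supply gene still called.

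Other genes of the same pathways, from lists of replication factors and of nucleotide enzymes that are no members, gave different counts. Of 28 tested replication factors 9 fell and 0 rose by limma, where 5.17% of all genes fell and 2.99% rose, and the median was -0.38. At an unadjusted p under 0.05, 15 of these factors were lower and 1 was higher, beside 12.3% and 11.8% of all genes. Clspn, which carries the checkpoint signal at stalled forks, fell by 2.31 ± 0.22 (adjusted p = 0.0019), and Top2a, the topoisomerase that untangles DNA, changed by -2.61 ± 0.27 (adjusted p = 0.00227). The factors that fell were also the fork protection genes Timeless and Tipin, the firing factors Ticrr and Topbp1, the clamp loader gene Chtf18, the repair factor Mms22l and the histone chaperone Asf1b, with values from -1.92 (Ticrr) to -0.76 (Topbp1). Ticrr and Chtf18 lay above the level filter only through the TGFb1 arrays and so had to differ to be tested; of the 26 factors above it in both groups 7 fell, against 4.85% of all such genes. Of 19 tested nucleotide enzymes, which include purine and salvage enzymes, 1 rose and 1 fell (5.26% each, beside 2.99% and 5.17% of all genes), with a median of 0.10, and 4 were higher and 3 lower at an unadjusted p under 0.05. These shares rest on single genes and are no result about the list. Shmt1, which feeds folate units to thymidylate, rose by 1.03 ± 0.16 (adjusted p = 0.0101), with array signals of 131 and 160.1 with TGFb1 alone and of 270.4 and 256 with added progesterone. Dck, the deoxycytidine kinase of salvage, fell by 0.51 ± 0.09 (adjusted p = 0.0159).

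Regulators of S phase entry fell in 6 of 18, against 5.17% of all genes tested, with a median of -0.44. Fbxo5, an inhibitor of the anaphase promoting complex, changed by -1.85 ± 0.18 (adjusted p = 0.00214) and Ccna2, cyclin A2, by -2.85 ± 0.31 (adjusted p = 0.00245). The others were the E2F genes E2f2 (-1.12), E2f7 (-1.92) and E2f8 (-2.50) and the cyclin E gene Ccne1 (-0.54). E2f7 and E2f8 lay above the level filter only through the TGFb1 arrays and so had to differ to be tested. Of the 15 regulators above it in both groups 4 fell, against 4.85% of all such genes. E2f1 (-0.56, also kept only through the TGFb1 arrays) and E2f3 (-0.21), which with E2f2 are known as activators, did not pass.

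Mitotic genes, set beside the replication genes as the other class that rises in dividing cells, fell in 29 of 29 tested, with a median of -2.43 against -0.72 for replication genes. All 29 had a gap of more than 1 on the log2 scale between the nearest arrays of the groups, as did 8 of the 48 replication genes and 2.01% of all genes. The centromere histone gene Cenpa changed by -1.88 ± 0.15 and the passenger protein gene Birc5 by -3.04 ± 0.27. Mitotic genes ran from -3.28 to -1.61, and Rrm2 (-2.64), Pole (-2.11), Cdc6 (-2.03) and Cdc45 (-1.66) lay within that range. Within the TGFb1 group replicate 1 lay above replicate 2 in 29 of 29 mitotic genes (median gap 0.61), and within the progesterone group also in 29 of 29 (0.71). No test of the difference between the lists was made.

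**Figure D5:**
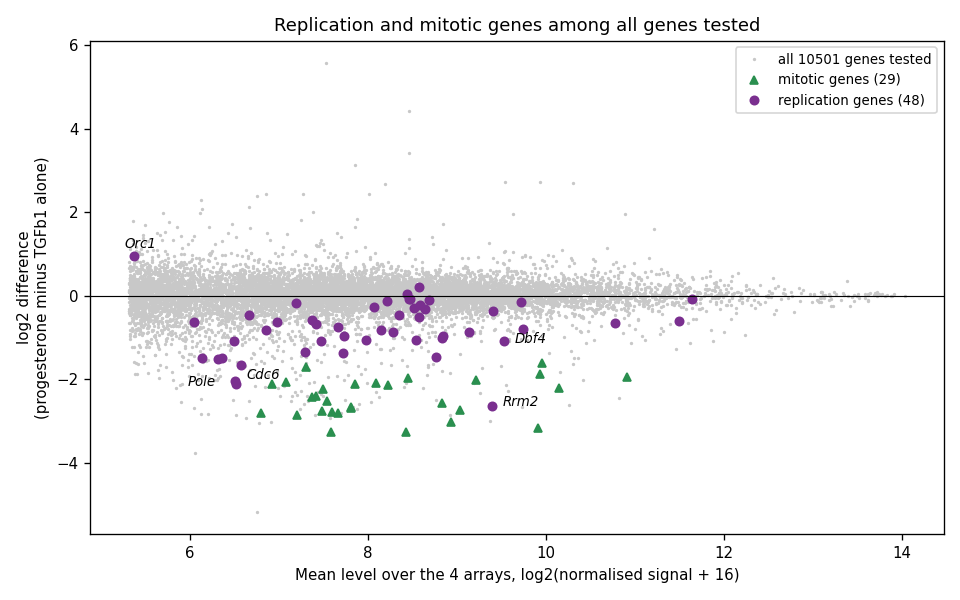
Log2 difference (progesterone minus TGFb1 alone) against the mean level over the 4 arrays for all 10501 genes tested, with 48 replication genes as circles and 29 mitotic genes as triangles. The replication genes spread from 0.95 (Orc1) down to -2.64, and the mitotic genes lie between -3.28 and -1.61.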

How the data were processed

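RNA of 4 samples, 2 per group, was hybridised to arrays with 45101 probe sets. The authors deposited linear signal intensity, and the submitters' processing notes name MAS5; its version and scaling are not given in the sources used here. Groups came from the sample labels. Control probe sets (64) were dropped, and values were quantile normalised and taken as log2(signal + 16). The 22518 probe sets above the median level were kept, and genes were named from the platform annotation, with symbols updated by Entrez identifier from RefSeq (GRCm38.p6). Of 45037 probe sets 34945 had 1 gene, 932 several and 9160 none. Where several single-gene probe sets named a gene, the one of highest mean log2 value stood for it, giving 10501 genes.

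The groups were compared in limma 3.58.1 under R 4.3.3 by lmFit and eBayes (intensity trend, no covariates), with Benjamini-Hochberg adjustment over all genes and a threshold of 0.05. Every adjusted p comes from limma. Precision is limited by having 4 arrays (2 residual degrees of freedom), and no two-sided permutation p of 2 arrays against 2 can fall below 0.333. The test was run on simulated arrays with independent noise drawn from its own fitted model. Such arrays cannot show how the test behaves with shared array effects. The members and lists were chosen with earlier results of these data known. Named in full were up to 4 members per step by the moderated statistic, members that rose or lay under the filter, and 2 genes that passed per further list; the MCM ring, Cdc45, Orc6 and Fen1 were added after their values were seen. Motif words were counted in RefSeq promoter windows, and protein sequences were not used here.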

Additional observations from a re-analysis of the deposited data

How the results depend on the processing

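Besides the settings reported, 19 alternatives were run, of which the removal of X- and Y-linked genes was chosen after seeing the data. None of the 25 called members turned in direction in any of them, and 5 (Cdc6, Mcm3, Mcm5, Gins1 and Rrm2) were called in each setting in which they were tested. The count of members that fell, with the share of all genes, was 16 with no level filter (1.78%), 16 in the upper 25% by level (35 members tested, 5.06%), 13 with no intensity trend (3.18%), 10 at an adjusted p under 0.01 (2.06%) and 16 with at least 2-fold (2.91%). It was 31 on deposited values (7.57%) and 27 after median centring (7.46%). By step, those that fell with no level filter were 3 licensing, 6 helicase, 4 polymerase, 1 clamp loading and 2 nucleotide supply genes. In the upper 25% they included 4 helicase and 3 polymerase genes, among those of other steps. With no trend they included 1 licensing, 2 polymerase, 1 clamp loading and 2 nucleotide supply genes, beside helicase genes. At an adjusted p under 0.01 they were 1 licensing, 5 helicase, 1 polymerase, 1 clamp loading and 2 nucleotide supply genes. With at least 2-fold they were 2 licensing, 7 helicase, 4 polymerase, 1 clamp loading and 2 nucleotide supply genes. On deposited values 5 clamp loading genes fell and 1 member rose (Orc1), as did 1 (Orc1) after median centring. The Orc1 calls carry no support for a rise, since the gene lay above the level filter only through the progesterone arrays. In the fit as deposited the prior degrees of freedom were infinite, so each gene's own spread was not used.

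Leaving out each array in turn, the count of members that fell ran from 7 to 31, by step from 1 to 4 (licensing), 4 to 10 (helicase), 1 to 8 (polymerase), 0 to 5 (clamp loading) and 1 to 4 (nucleotide supply), and the member median from -0.91 to -0.56. That median was -0.60 with a pseudocount of 64 and -0.96 on deposited values, where the median of all genes was -0.22.

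Both groups carry replicate numbers 1 and 2, but with 2 pairs these are only numbers: deviations of same-numbered arrays correlated at r = 0.205 across genes, which are not independent replicates. With the replicate number as a block 32 members fell and 1 rose (Orc1, above the level filter only through the progesterone arrays). In that setting 5 clamp loading genes fell, while 9.76% of all genes fell and 8.68% rose.

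Sign changes were seen among genes that did not pass. Fen1 was at -0.25 as deposited, -0.068 centred, -0.49 with the mean of its probe sets, -1.04 without _x_at and _s_at probe sets, and, leaving out each array in turn, from -0.072 to 0.17. Orc3 was at -0.094 as deposited and -0.19 with the mean of its probe sets. Mcm2 was at 0.031 with that mean, and leaving out each array in turn Mcm2 ran from -0.15 to 0.0070, Rpa1 from -0.17 to 0.020 and Rfc2 from -0.27 to 0.014. The cause of these changes was not tested. Detection calls were not used, so dim genes such as Orc1 and Tyms have no stated detection limit.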
